A study of Mus musculus with 11 samples.

Results

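Cell death in developing neurons is set by the Bcl2 protein family and the caspases, and the genes described here are 8 of these regulators, measured in trigeminal ganglia of mouse embryos that carry or lack the transcription factor Brn3a. The members were all probe sets annotated to Bcl2, Bcl2l1, Bak1, Bid, Bad, Mcl1, Hrk or Casp9 alone. A further listed gene, Bax, had no such probe set in the values used here and was dropped, so 8 of 9 listed genes remained, out of 13675 named genes in all. They were covered by 18 probe sets, 15 of the 12488 on the Affymetrix U74Av2 array and 3 of the 12411 on the U74Bv2 array. The question was whether death regulators, among them Bcl2 as a reported target of Brn3a, had moved at embryonic day 13.5, a stage which the study's design text places before the main loss of sensory neurons.

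Wild-type, heterozygous and homozygous Brn3a knockout embryos were compared, all at embryonic day 13.5. Each array held RNA of about 10 to 12 pooled ganglia of 1 genotype, and the trigeminal ganglion supplies sensation to the face. U74Av2 was used for 2 arrays of each genotype, and U74Bv2 for 2 knockout, 2 heterozygote and 1 wild-type array, which makes 11 arrays. The sources used here name neither the strain nor the construct of the knockout allele. Nothing says that replicate arrays came from separate pools, so p-values cover the spread between arrays, which may be technical. In whole ganglia, fewer cells of a type and less RNA per cell cannot be told apart.

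Neurons that outnumber their targets die by the mitochondrial pathway of apoptosis. Bcl2, Bcl-x (Bcl2l1) and Mcl1 hold the outer mitochondrial membrane closed, and Bax and Bak (Bak1) open it. The BH3-only proteins Bid, Bad and Hrk tip the balance towards opening, Bad and Hrk by binding the survival proteins. The cytochrome c that escapes activates caspase 9 (Casp9), which starts the cascade of executioner caspases. Neurotrophins from the target tissue keep this pathway silent in sensory neurons, and Brn3a has been described as an activator of Bcl2 in cultured neurons.

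Among these regulators (14 tested probe sets), 1 transcript passed a test between genotypes, that of the BH3-only gene Hrk. Hrk was lower in knockout than in heterozygote ganglia on U74Bv2 (limma adjusted p = 0.0486), where 1.71% of all tested probe sets were called. It did not pass against the single wild-type array (adjusted p = 0.284), and the call was lost without any 1 of the 5 arrays. Bcl2, Bcl2l1, Mcl1, Bak1, Bid, Bad and Casp9 passed no test between genotypes. On U74Av2 the Bcl2 signals differed more between the arrays numbered 1 and 2 than between genotypes. On U74Bv2, with its single wild-type array, no fit between array numbers was made.

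The values are MAS5 signals, linear intensities with 1 value per probe set, compared as log2(signal + pseudocount) in limma, with Benjamini-Hochberg adjustment over all tested probe sets of an array type and a threshold of 0.05. The 40% of probe sets with the lowest mean log2 value were not tested. This left 14 member probe sets, 11 on U74Av2 and 3 on U74Bv2, and 4 were too dim. Pou4f1, which encodes Brn3a, read 3313 on the wild-type U74Bv2 array, 2196 and 3570 on the heterozygote arrays and 550 and 904 on the knockout arrays. This matches the knockout labels, but does not tell heterozygote from wild-type. Whether its probes lie in the deleted part is not known here. Of 11 tested sensory neuron markers on U74Av2, 1 fell in knockout, the actin-binding protein gene Avil (-2.72 ± 0.26 against wild-type, limma adjusted p = 0.0125). Of the 11, 10 were below heterozygote, while 5 were above and 6 below wild-type. The uncalled differences from wild-type ran from -0.87 (Prph) to 0.36 (Tubb3). Summed marker signal was 63104 to 67233 in knockout, 64365 to 67168 in wild-type and 72143 to 88083 in heterozygote. The sum gives most weight to bright genes such as Tubb3, which read 17183 to 35465, highest on heterozygote array 1. Red blood cell markers (5 genes) summed to 37556 to 66693, macrophage markers (4 genes) to 814 to 1091 and endothelial markers (6 genes) to 1938 to 2210 per array, and these sums over different probes are not compared with each other. Summed connective tissue markers (7 genes) were 10995 to 12201 in knockout, above the 8472 to 9893 of the other arrays. The 6 Schwann and satellite glia markers were 19121 to 22931 in knockout and 15901 to 19794 otherwise, ranges that overlap. That sum gives most weight to Fabp7 (9736 to 16258), and 4 of the 6 were above and 2 below wild-type. By limma 0 of the 7 and 0 of the 6 were called. Skeletal muscle markers (5 genes) summed to 2073.5 to 2493.6 in knockout and 1832.1 to 2471.4 otherwise. The part of these marker differences in any result here was not tested.

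**Figure D1:**
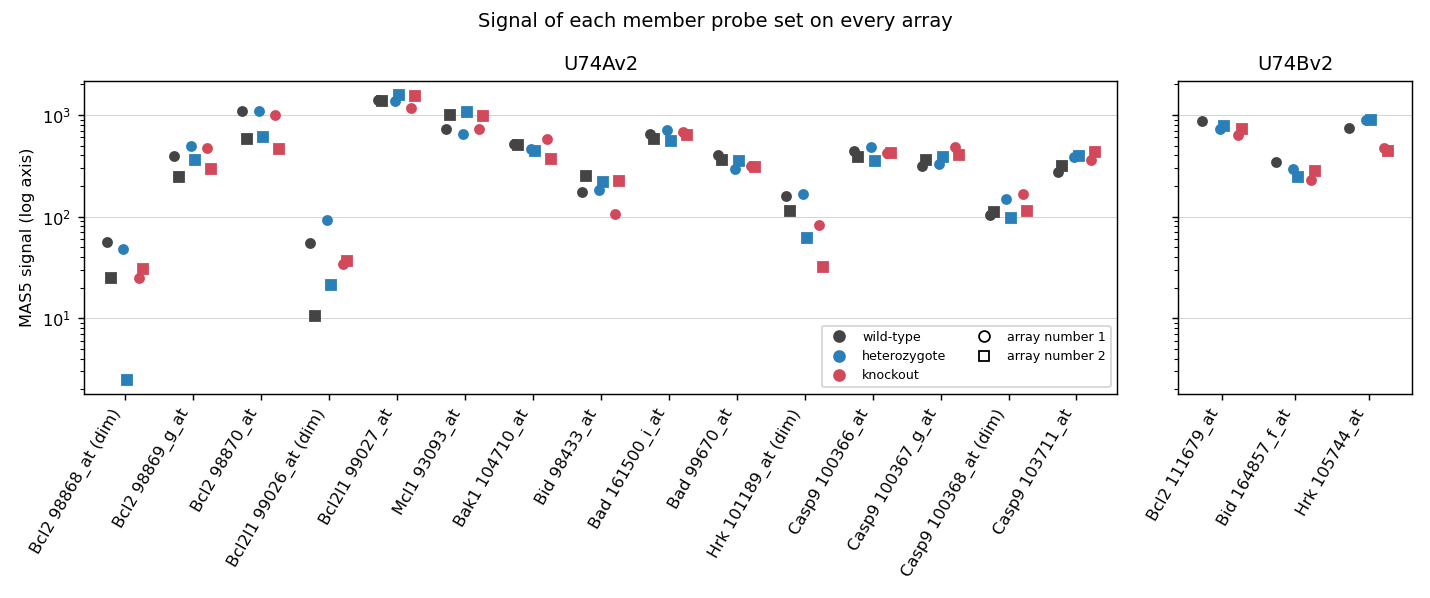
MAS5 signal (log axis) of the 18 member probe sets on every array, wild-type in grey, heterozygote in blue and knockout in red, with circles for array number 1 and squares for array number 2. Probe sets marked dim were not tested. Hrk on U74Bv2 is the 1 member probe set whose knockout arrays (477 and 439) lie below all others, as in 13.4% of tested probe sets there. Casp9 100367_g_at has both knockout arrays above all others, as in 8.53% on U74Av2. The Bcl2 probe set 98870_at splits by array number.

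Bcl2, the survival protein named as a Brn3a target, had 4 probe sets, of which 98870_at on U74Av2 had the widest error of any member. Its signal was 1081 and 578 on wild-type arrays 1 and 2, 1093 and 612 on the heterozygote arrays, and 989 and 466 on the knockout arrays. In every genotype the number 1 array was about as far above the number 2 array, and the genotypes overlapped. Knockout minus wild-type was -0.20 ± 0.45 (log2, SE, n = 2 arrays each), with a 95% interval from -1.28 to 0.87 (limma adjusted p = 1.00), an interval that holds a fall or a rise of nearly that size. Within number 1 the difference was -0.12 and within number 2 it was -0.29. Knockout minus heterozygote was -0.14 and -0.36, so knockout was the lowest genotype within each number. The share of all probe sets with this order was not counted. With the array number as a replicate block the difference from wild-type was -0.20 ± 0.14 (limma adjusted p = 0.564), still uncalled. Leaving out 1 array leaves the numbers unbalanced between genotypes, and without the block the value then ranged from -0.71 to 0.30, uncalled throughout.

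The other Bcl2 probe sets gave no call either. The probe set 98869_g_at, annotated to the same source sequence, had signals of 397 and 247 in wild-type, 489 and 364 in heterozygote, and 472 and 296 in knockout, a difference of 0.22 ± 0.32 (interval -0.54 to 0.99). On U74Bv2 the probe set 111679_at read 871 in wild-type, 720 and 776 in heterozygote, and 637 and 726 in knockout. Here knockout was -0.34 ± 0.22 from wild-type (interval -0.83 to 0.16, adjusted p = 0.682) and -0.13 ± 0.18 from heterozygote (interval -0.53 to 0.28, adjusted p = 0.920). The 3 brighter probe sets thus differed in sign against wild-type, and 1 knockout array overlapped the heterozygotes on U74Bv2. Within array numbers 1 and 2, knockout minus heterozygote was -0.17 and -0.090 for 111679_at, and -0.046 and -0.26 for 98869_g_at. For 98869_g_at, knockout minus wild-type was 0.23 and 0.22 within the numbers. The probe set 98868_at was dim, between 2.5 and 55.8, and was not tested.

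The promoter of Bcl2 is shown because it is the reported target, and that of Hrk because Hrk is the member with a call, though one that failed against wild-type and is lost without any 1 array. Both are the 250 bases before the start of the RefSeq transcript in build GRCm38.p6, written 5′ to 3′ on the gene's strand, and capitals mark a match to a searched motif. Bcl2 lies on the minus strand at chr1:106714291-106714540 and Hrk on the plus strand at chr5:118169514-118169763.
Bcl2: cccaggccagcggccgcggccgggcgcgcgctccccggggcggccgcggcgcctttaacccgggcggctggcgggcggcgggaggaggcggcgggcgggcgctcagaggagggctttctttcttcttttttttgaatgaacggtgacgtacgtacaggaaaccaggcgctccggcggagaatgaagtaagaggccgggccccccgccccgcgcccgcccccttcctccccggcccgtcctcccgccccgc
Hrk: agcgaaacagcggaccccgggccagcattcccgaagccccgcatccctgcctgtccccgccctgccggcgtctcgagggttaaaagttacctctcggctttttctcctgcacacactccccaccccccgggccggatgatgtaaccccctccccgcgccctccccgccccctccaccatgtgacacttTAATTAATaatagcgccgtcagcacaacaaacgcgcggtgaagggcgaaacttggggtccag
The Hrk window holds TAATTAAT on the plus strand, at bases 62 to 55 before the start. POU-domain factors of the Brn3 class bind AT-rich elements, and the motif was chosen after the sequence had been seen. On both strands TAATTAAT occurs in 259 of 32851 such windows (0.788%), and among the 12 windows of the 9 listed genes in that of Hrk. The 9-base ATAATTAAT, which contains it, is in 0.259% of windows and the octamer ATGCAAAT in 1.601%, and neither is in a member's window. A match describes the letters and is no evidence of binding. The GC content was 74.8% in the Bcl2 window and 63.2% in that of Hrk, against a median of 52.4% over all windows.

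Bcl2l1, which encodes the survival protein Bcl-x, was the brightest member on U74Av2. Its probe set 99027_at read 1403 and 1381 in wild-type, 1383 and 1561 in heterozygote, and 1180 and 1546 in knockout. The genotypes overlapped, and knockout minus wild-type was -0.042 ± 0.22 (interval -0.56 to 0.48). A further Bcl2l1 probe set, 99026_at, was dim (10.6 to 91.9) and was not tested.

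Mcl1, a short-lived survival protein, read 727 and 993 in wild-type, 652 and 1074 in heterozygote, and 722 and 980 in knockout. In each genotype the number 2 array was the higher one, opposite to Bcl2, and the genotypes overlapped. Knockout minus wild-type was -0.013 ± 0.31 (interval -0.75 to 0.72).

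Of the pore-forming effectors, Bak1 was measured by 1 probe set. It read 519 and 506 in wild-type, 462 and 440 in heterozygote, and 581 and 367 in knockout, so that the knockout arrays enclosed all others. The difference from wild-type was -0.13 ± 0.26 (interval -0.74 to 0.48).

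Hrk (harakiri, also DP5), a BH3-only protein known from neurons deprived of nerve growth factor, was lower in knockout. On U74Bv2 its probe set 105744_at read 749 in wild-type, 900 and 888 in heterozygote, and 477 and 439 in knockout. Both knockout arrays lay below the 3 others, as they did in 13.4% of the tested probe sets of this array type. Against heterozygotes Hrk was 1.86-fold lower (log2 -0.90 ± 0.18 SE, interval -1.30 to -0.49, limma adjusted p = 0.0486), a call made for 1.71% of tested probe sets. Set against all 3 other arrays it was 1.76-fold lower (-0.82 ± 0.16, adjusted p = 0.0265, with 2.93% of probe sets called). The knockout arrays enter both comparisons.

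Against the single wild-type array the fall of Hrk did not pass (-0.66 ± 0.22, interval -1.15 to -0.16, adjusted p = 0.284, with 1.4% of probe sets called). Heterozygote minus wild-type was 0.24 ± 0.22 (adjusted p = 1.00), with 0% of probe sets called on U74Bv2 and 283 of them at an unadjusted p under 0.05. The call against heterozygotes lies close to the threshold. It was lost when any of the 5 arrays was left out, with the difference between -0.95 and -0.84 and adjusted p between 0.0504 and 0.144. The same held against all other arrays (-0.90 to -0.76, adjusted p 0.0504 to 0.155). Beside Hrk, all 4 tested sensory neuron markers on U74Bv2 were below the single wild-type array, uncalled, with a median of -0.14. Against heterozygote 1 was above and 3 were below, uncalled, with a median of -0.16. Both knockout arrays lay below all others for Elavl4 (4524 and 4219, against 5511 to 5995) and for the neurofilament gene Nefl (10986 and 13362, against 14168 to 15533). This order was found in 13.4% of tested probe sets on U74Bv2. The knockout arrays overlapped the others for Elavl3 and Nefm. The part of these marker differences in the Hrk value was not tested.

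The Hrk probe set on U74Av2, 101189_at, was too dim to be tested. It read 160 and 113 in wild-type, 165 and 61.0 in heterozygote, and 82.0 and 32.2 in knockout. Within each array number the knockout was the lowest, by -0.67 and -0.99 against wild-type and by -0.70 and -0.43 against heterozygote. Over both numbers the knockout and heterozygote arrays overlapped. Bcl2 98870_at had the same order within numbers, and the share of all probe sets with it was not counted. Without the filter the difference of Hrk 101189_at from wild-type was -0.83 ± 0.42 (limma adjusted p = 1.00).

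**Figure D2:**
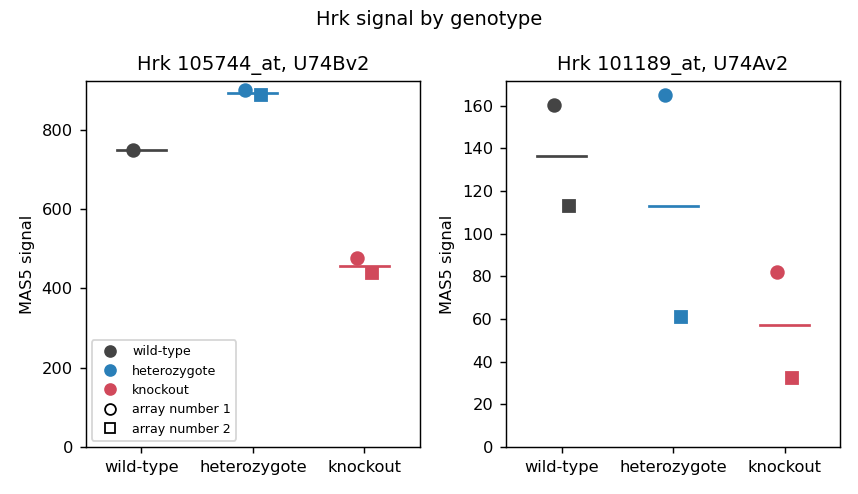
Hrk signal (linear axis from 0) by genotype, for the tested probe set on U74Bv2 at left and the dim one on U74Av2 at right. Points are arrays, circles number 1 and squares number 2, and lines are means, over 2 arrays except for the single wild-type U74Bv2 array. The knockout points are lowest at left (477 and 439) and lowest within each number at right (82.0 and 32.2).

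The other BH3-only genes did not pass. Bid, which death receptors engage through caspase 8, read 174 and 251 in wild-type, 185 and 219 in heterozygote, and 106 and 222 in knockout on U74Av2 (-0.33 ± 0.34, interval -1.15 to 0.48). The knockout array 1 was the lowest and knockout array 2 lay among the rest, and without knockout array 1 the sign turned, to 0.066. On U74Bv2 a family-type Bid probe set read 340 in wild-type, 293 and 246 in heterozygote, and 231 and 278 in knockout (-0.36 ± 0.31 against wild-type, adjusted p = 0.770, and -0.070 ± 0.25 against heterozygote, adjusted p = 0.976). Bad, which survival kinases silence by phosphorylation, had 2 tested probe sets of opposite sign. The probe set 99670_at read 405 and 361 in wild-type, 294 and 350 in heterozygote, and 317 and 311 in knockout (-0.25 ± 0.22), with knockout below wild-type but within the heterozygotes. The probe set 161500_i_at read 650 and 582, 713 and 558, and 677 and 639 in the same order (0.089 ± 0.22).

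Casp9, the initiator caspase of the mitochondrial pathway, had 4 probe sets on U74Av2, of which 3 were tested. The probe set 100367_g_at read 317 and 358 in wild-type, 330 and 390 in heterozygote, and 486 and 403 in knockout, both knockout arrays above all others. This order was found in 8.53% of tested probe sets on U74Av2, and the reverse order in 7.66%. The difference from wild-type was 0.35 ± 0.23 (interval -0.19 to 0.89), and from all other arrays 0.31 ± 0.18 (adjusted p = 0.851). The probe set 100366_at, annotated to the same source sequence, read 437 and 386, 479 and 350, and 420 and 423 in the same order of genotypes, a difference of 0.034 ± 0.24 with knockout in the middle. The probe set 103711_at read 275 and 314 in wild-type, 390 and 396 in heterozygote, and 363 and 431 in knockout (0.37 ± 0.22), so that here the heterozygotes stood with the knockouts. The fourth, 100368_at, was dim, between 97.8 and 165.

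On U74Av2, 0 of 11 tested member probe sets were called in knockout against wild-type (0.255% of all tested probe sets were called), against heterozygote (0.188%) or against all other arrays (0.872%), or in heterozygote against wild-type (0%). By limma 0 of the 11 had an unadjusted p under 0.05 in each of these. Of all 7453 tested probe sets, 381 did against wild-type, 391 against heterozygote, 590 against all other arrays and 52 in heterozygote against wild-type. The members' median difference from wild-type was -0.013, with 5 above and 6 below zero, against a median of 0.016 over all 7453 tested probe sets, and the range was -0.33 to 0.37. Against heterozygote the members ranged from -0.28 to 0.27. On U74Bv2 1 of 3, the Hrk probe set, was called against heterozygote (1.71% of all tested probe sets were called). Against wild-type 0 of 3 were called (1.4%), and 1 had an unadjusted p under 0.05, as had 834 of all 7446 tested probe sets. All 3 were below wild-type, as a single array, with a median of -0.36 against 0.025 over all of them. Both array types give wide intervals, so a p that missed the threshold does not show that a transcript stayed level.

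**Figure D3:**
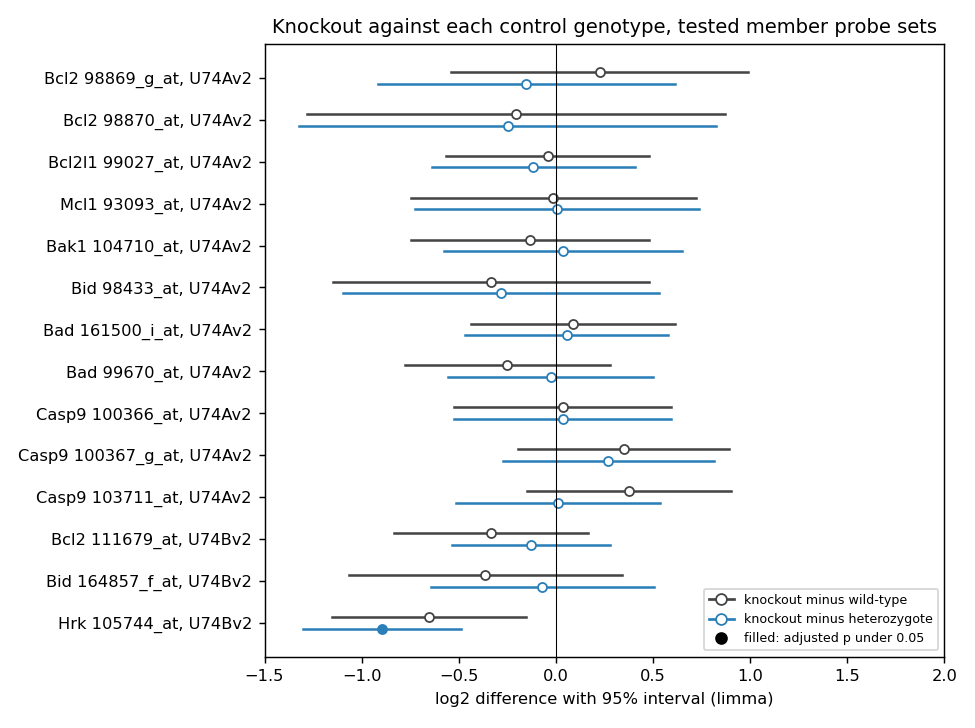
Log2 difference of knockout from wild-type (grey) and from heterozygote (blue) for the 14 tested member probe sets, with 95% intervals from limma. Filled points passed an adjusted p of 0.05. Hrk against heterozygote (-0.90) is the filled point, and both Hrk intervals lie below zero.

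Both tested Bcl2 probe sets and Mcl1 differed between array numbers on U74Av2. In a fit with genotype and number as terms, examined after the values had been seen, 3 of 11 member probe sets were called between numbers, where 24.4% of all tested probe sets were, a share close to that of the members. Bcl2l1 99027_at was not among them (-0.17 ± 0.12, adjusted p = 0.308). Bcl2 98870_at was 0.88 ± 0.12 higher in number 1 (log2, SE, n = 3 arrays each, adjusted p = 0.00598) and 98869_g_at 0.52 ± 0.14 higher (adjusted p = 0.0320), while Mcl1 was lower by -0.51 ± 0.12 (adjusted p = 0.0225). Without any 1 of the 6 arrays only the call of Bcl2 98870_at remained (0.82 to 0.93). The ratio of number 1 to number 2 for this probe set was 1.87 in wild-type, 1.78 in heterozygote and 2.13 in knockout. The 3 probe sets for 18S ribosomal RNA were 10.1- to 13.2-fold brighter in the number 1 arrays, and the part of this in the Bcl2 values was not tested. The labels do not say what the number stands for.

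**Figure D4:**
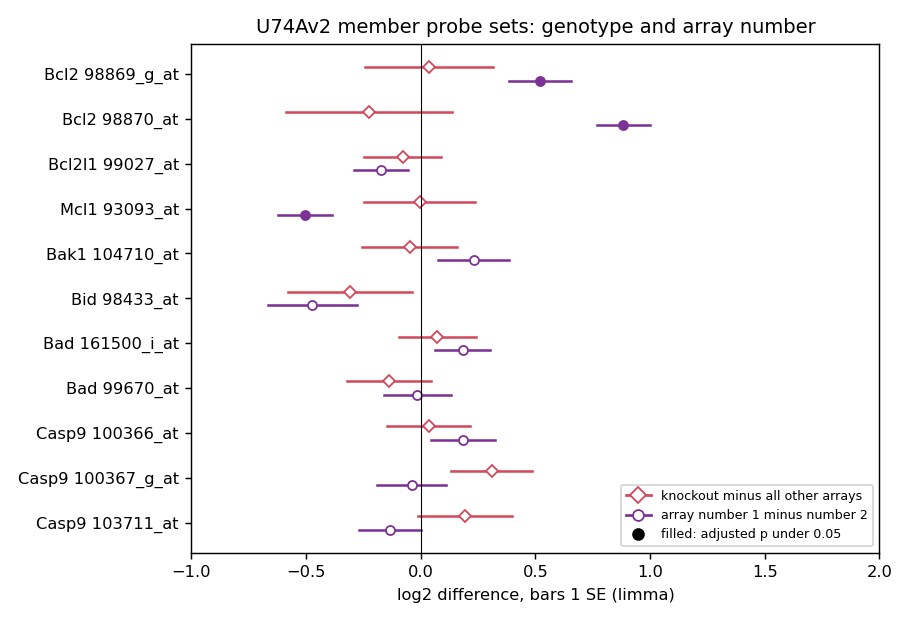
Log2 difference of knockout from all other arrays (red diamonds) and of array number 1 from number 2 (purple circles) for the 11 tested member probe sets on U74Av2, with bars of 1 SE. Filled points passed an adjusted p of 0.05. Both Bcl2 probe sets and Mcl1 are filled for array number (0.88, 0.52 and -0.51), and no diamond is filled.

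The genes whose log2 signals followed Bcl2 98870_at most closely over the 6 U74Av2 arrays were Pnpla2 (Pearson r = 0.997), Zfp94 (0.997, from a relaxed probe set) and Ip6k1 (0.995), out of 5662 named genes, of which 130 had an r above 0.95. These arrays share the split by number, and the likeness is a description over 6 arrays. Over the 5 U74Bv2 arrays Bcl2 111679_at was followed most closely by Rims2 (0.996), Cabin1 (0.988) and Dcxr (0.988), out of 5151 genes.

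Beyond the members, the wider death and survival pathway held 52 further tested genes on U74Av2, of which 0 rose and 0 fell in knockout against wild-type, with a median difference of -0.058 and a range from -0.97 to 0.96. In limma 8 of the 52 had an unadjusted p under 0.05, beside 381 of all 7453 probe sets, and they are named here after their values were seen. Lower in knockout, with adjusted p from 0.639 to 0.948, were the death receptor genes Tnfrsf21 (-0.97) and Tnfrsf1a (-0.60), the p53 antagonist Mdm2 (-0.68), Plk2 (-0.72), the artemin receptor gene Gfra3 (-0.67) and the stress kinase gene Map3k5 (-0.65). Higher were the p53 target Gadd45a (0.96, adjusted p = 0.539) and the mitotic gene Birc5 (0.78, adjusted p = 0.781). Among the survival proteins Bcl2l2 stood at 0.11 ± 0.30 and Bcl2l10 (a relaxed probe set) at -0.95 ± 0.45. Bok, an effector related to Bax, stood at 0.22 ± 0.34, and the BH3-only genes Bcl2l11 (Bim) at -0.072 ± 0.28 and Bnip3 at -0.28 ± 0.22. Casp2 stood at -0.016 ± 0.22 and Casp14 at -0.055 ± 0.40. None of these 7 passed.

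Of the apoptosome genes and inhibitors of apoptosis (10 tested, 0 called), Htra2 stood at 0.15 ± 0.38, from a relaxed probe set, and Dffa, which holds the apoptotic nuclease in check, at -0.41 ± 0.21. Of 7 death receptor genes 0 were called, with the adaptors Tradd (relaxed probe set) at -0.56 ± 0.85 and Traf2 at -0.24 ± 0.35. Of 8 genes of p53 and its targets 0 were called, with Ei24 at 0.020 ± 0.29 and the kinase Plk2 at -0.72 ± 0.22 (adjusted p = 0.641). Of 11 genes of JNK signalling, the stress kinase route that acts through Jun, 0 were called, with the scaffold Mapk8ip1 at 0.27 ± 0.25 and the kinase Mapk8 at -0.10 ± 0.25. Of 9 neurotrophin receptor and survival kinase genes 0 were called, with Akt1 at 0.14 ± 0.21 and Pdpk1 at -0.24 ± 0.24.

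On U74Bv2, 15 further pathway genes were tested and 1 fell, the neurotrophin receptor Ngfr (p75), which can signal survival or death. Its signal was 2745 in wild-type, 3655 and 2781 in heterozygote, and 1107 and 1055 in knockout. Both knockouts lay below all others, as in 13.4% of tested probe sets on this array type. Against heterozygote 1.71% of all tested probe sets were called. The difference was -1.31 ± 0.22 against wild-type (adjusted p = 0.0319) and -1.52 ± 0.18 against heterozygote (adjusted p = 0.00521). The other 14 did not pass in either comparison. Among them the BH3-only gene Bmf stood at -0.18 ± 0.19 from wild-type and the caspase inhibitor Xiap at 0.070 ± 0.22. Naip5, listed with the inhibitors of apoptosis, stood at 0.27 ± 0.25. Cflar, which blocks caspase 8, stood at 0.067 ± 0.28, and Faim at 0.73 ± 0.61. The p53 relative Trp73 stood at -0.26 ± 0.47 and the JNK pathway kinases Mapk9 at -0.17 ± 0.23 and Map2k4 at 0.036 ± 0.21. The largest of the 14 differences from wild-type was that of the neurotrophin receptor gene Ntrk2, at 0.90. Its signal was 613 in wild-type, 672 and 829 in heterozygote, and 1230 and 1140 in knockout. Both knockout arrays lay above all others, as in 14.9% of tested probe sets on U74Bv2. From heterozygote Ntrk2 stood at 0.63 ± 0.18 (limma adjusted p = 0.187). In that comparison 3 of the 15 had an unadjusted p under 0.05 by limma, beside 720 of all 7446 probe sets. These were Ngfr, Ntrk2 and Pik3r1 (-0.42).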

How the data were processed

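RNA of pooled trigeminal ganglia was measured on 11 Affymetrix arrays. The submitters' processing notes name MAS5. The values the authors deposited are linear intensities, with 1 signal for each probe set, and no source used here states the scaling target. The 2% trimmed means of the arrays were 500.26 to 500.29 on U74Av2 and 497.61 to 498.38 on U74Bv2, so no scaling was added, and the number of arrays limits the precision.

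Genes were named from the platform annotation where it gave 1 symbol, updated by Entrez identifier with RefSeq genes of GRCm38.p6 (10839 and 10550 matched, 0 symbols changed). Signals were taken as log2(signal + 50.0) on U74Av2 and log2(signal + 49.8) on U74Bv2, which understates changes of dim probe sets. The 66 control probe sets and probe sets at or below the 40th percentile of mean log2 value (signals of about 124 and 172) were left out. limma 3.58.1 in R 4.3.3 was fitted with genotype as factor to all arrays of a type, with eBayes and an intensity trend, two-sided, and tested on simulated data. The lone wild-type U74Bv2 array was assumed to vary like the others. Plots used Python 3.11.15 with matplotlib 3.10.9.

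All member probe sets are given, whatever their values. Of each pathway list the called genes, up to 4, or otherwise the 2 brightest non-members are named, and for Bcl2 the 3 most alike genes. Members and lists were chosen with earlier results of these data known. The comparisons with all other arrays and between array numbers were given their own account after seeing the data. Alternatives were the pseudocount, the filter, the trend, quantile normalization, a replicate block, fewer genotypes in the fit and leaving out each array. The titles give the numbers 1 and 2 to arrays of every genotype.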

Additional observations from a re-analysis of the deposited data

How the results depend on the processing

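The Hrk call depended on the processing. Against heterozygote on U74Bv2, 1 member probe set was called, and 0 with a pseudocount of 0.02 of the trimmed mean (Hrk -0.95, limma adjusted p = 0.0519), without the filter (-0.90, adjusted p = 0.104), without the intensity trend (adjusted p = 0.101), with the compared genotypes alone in the fit (adjusted p = 0.0504), with the replicate block and no filter (adjusted p = 0.0551), and with any 1 array left out (0 to 0). Against all other arrays the count of 1 became 0 without the filter (adjusted p = 0.0503), without the trend (adjusted p = 0.0531), with the replicate block and no filter (adjusted p = 0.0793) and with any 1 array left out (0 to 0). Against wild-type the count of 0 became 1 when all other arrays took the place of the wild-type one, also with a replicate block (1). A larger pseudocount and quantile normalization kept the Hrk calls. The number of called member probe sets between array numbers fell from 3 to 1 without any 1 array (1 to 1). The causes were not tested.

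Leaving out single arrays turned the sign of uncalled differences from wild-type on U74Av2, which ranged from -0.71 to 0.30 for Bcl2 98870_at, from -0.072 to 0.52 for 98869_g_at, from -0.23 to 0.15 for Bcl2l1, from -0.23 to 0.20 for Mcl1, from -0.43 to 0.17 for Bak1, from -0.73 to 0.066 for Bid and from -0.046 to 0.11 for Casp9 100366_at. Bid against heterozygote on U74Bv2 ranged from -0.18 to 0.042.

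Arrays of the same number deviated together on U74Av2 (correlations of deviations from the genotype means 0.57, 0.62 and 0.53 over 7453 probe sets), which with 2 numbers does not establish a pairing. With the number as a replicate block no member was called on U74Av2, where the SE of the Bcl2 98870_at difference from wild-type fell to 0.14 (-0.20, adjusted p = 0.564), and Hrk against heterozygote had an adjusted p of 0.0110. Counts over all probe sets moved more. In knockout against wild-type they were 19 and with the block 130 on U74Av2, and 104 and 216 on U74Bv2. Against heterozygote they were 14 and 129, and 127 and 317. Without the filter the U74Bv2 counts were 21 against wild-type and 54 against heterozygote, and without the trend 40 and 81. Between numbers they ranged from 334 to 1250 with 1 array left out, against 1820. The wild-type U74Bv2 array could not be left out of comparisons with it.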
